A study of Mus musculus with 22 samples.

Results

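The genes described here are the ATP-dependent chromatin remodellers and the bromodomain and ARID genes that work with them, followed through mouse oogenesis and early cleavage with Setd2 present or deleted. They were chosen by symbol alone: the Smarca to Smarce, Chd, Ino80, Arid, Brd and Baz series with Bptf, Pbrm1 and Ep400. The rule found 52 genes among the 22592 symbols shared by all 4 tables, and they form 7 families. SWI/SNF has 15 members, ISWI 8, CHD 8, INO80 and TIP60 7, the BET and other bromodomain genes 5, the other ARID genes 7 and the other SNF2 ATPases 2. Smarca5-ps is a pseudogene of Smarca5, so the reads of this pair may be split between them and both values are uncertain.

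Chromatin remodellers burn ATP to slide, evict or exchange nucleosomes. SWI/SNF complexes open chromatin at promoters and enhancers, ISWI complexes space nucleosomes, CHD proteins include the motor of the repressive NuRD complex, and INO80 and TIP60 complexes act on the histone variant H2A.Z. Bromodomains read acetylated lysine, and the BET proteins carry that signal to transcription. An oocyte loads the embryo with its first supply of these factors, and maternal Smarca4, the SWI/SNF motor, is known for its part in the start of transcription in the mouse embryo. Setd2 is the enzyme that trimethylates lysine on the tail of histone H3 over transcribed genes.

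The series holds 22 Smart-seq2 RNA libraries, in 4 tables that were normalized separately. Growing oocytes, picked for size on postnatal day 7, were Setd2+/- or Setd2-/-, so these controls also lack an allele. Females were 8 weeks old for all groups but the growing oocytes. Full-grown oocytes, taken 48 h after PMSG in the Setd2 groups and in the Dnmt3l pair, were labelled control or knockout. Zygotes taken 30 h after hCG and embryos named for 48 h carried the same labels and came from females with or without Setd2 in the oocyte. At 48 h the controls were at the 2-cell stage and the knockout embryos were at the 1-cell stage, so genotype and cell stage cannot be told apart there. Embryos at the 8-cell stage came from oocytes rebuilt by spindle transfer between control and Setd2mNull oocytes, fertilized by sperm injection and labelled Setd2+/- or Setd2-/-; which oocyte gave the spindle in each library is not given in the sources used here. A Dnmt3l control library and a library labelled Dnmt3l knockout, both of full-grown oocytes, complete the set. The driver of the Setd2 deletion, the genotype of the sperm and the number of cells per library are not given in the sources used here either. Each Setd2 group had 2 libraries (n = 2) and each Dnmt3l group had 1. Nothing says that replicates came from separate animals, so a p-value here speaks of the spread among libraries, which may be technical.

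Setd2 itself was low in the knockout libraries of the full-grown oocyte, zygote and 48 h groups (limma adjusted p = 0.0102, 0.000208 and 7.44e-08). In growing oocytes it was at 4.33 and 6.68 FPKM (fragments per kilobase of transcript, scaled to the size of the library) in controls and at 3.67 and 3.21 in the libraries labelled knockout, not a called difference (limma adjusted p = 0.799). In 8-cell embryos it was at 18.2 and 17.1 FPKM against 15.4 and 18.1, and these groups overlapped. Dnmt3l was at 31.7 FPKM in the Dnmt3l control and at 25 in the library labelled knockout, so the level of the transcript did not separate that pair. Of 12 oocyte markers, 12 reached 1 FPKM in every full-grown oocyte and zygote library. Each 8-cell library had 6 of them at that level, not the same genes in each. Zp3, Dppa3, Ooep and Padi6 passed in every 8-cell library, as did all 8 of the 8-cell markers. Depth, estimated from the smallest steps between FPKM values, ran from about 3.16 to 4.83 M fragments (M for mega) in zygotes and 48 h embryos and from 5.32 to 22.3 elsewhere.

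Sequences just around the transcription start are shown for 4 members with different courses below. Smarca4 and Smarcc1 were high in 2-cell controls, and Smarcal1 and Arid5b were low there. They are RefSeq start sites of GRCm38.p6, 250 bases before to 50 after the start, 5′ to 3′ on the strand of the gene. Capitals mark each GC box, the letters GGGCGG or CCGCCC. The Smarca4 entry is at chr9:21615919-21616218 on the plus strand, Smarcc1 at chr9:110131774-110132073 on the plus strand, Smarcal1 at chr1:72583001-72583300 on the plus strand and Arid5b at chr10:68278677-68278976 on the minus strand.

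Smarca4: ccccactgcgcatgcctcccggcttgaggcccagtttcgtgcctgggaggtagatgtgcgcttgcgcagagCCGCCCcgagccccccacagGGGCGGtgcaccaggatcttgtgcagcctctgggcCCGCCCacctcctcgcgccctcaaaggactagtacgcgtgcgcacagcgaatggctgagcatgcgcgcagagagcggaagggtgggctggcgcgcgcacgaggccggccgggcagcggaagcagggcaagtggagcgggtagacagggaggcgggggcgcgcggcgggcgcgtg

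Smarcc1: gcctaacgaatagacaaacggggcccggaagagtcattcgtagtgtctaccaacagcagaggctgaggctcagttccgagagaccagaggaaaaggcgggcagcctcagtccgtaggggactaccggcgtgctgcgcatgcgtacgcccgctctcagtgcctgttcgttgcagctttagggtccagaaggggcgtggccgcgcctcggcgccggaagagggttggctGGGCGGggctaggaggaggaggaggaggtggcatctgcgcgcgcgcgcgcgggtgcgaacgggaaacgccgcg

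Smarcal1: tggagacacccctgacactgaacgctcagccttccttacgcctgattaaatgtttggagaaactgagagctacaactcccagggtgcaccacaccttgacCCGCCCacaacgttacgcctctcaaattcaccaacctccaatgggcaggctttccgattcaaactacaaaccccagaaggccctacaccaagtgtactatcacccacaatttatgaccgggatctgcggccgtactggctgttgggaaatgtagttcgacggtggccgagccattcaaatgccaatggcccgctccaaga

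Arid5b: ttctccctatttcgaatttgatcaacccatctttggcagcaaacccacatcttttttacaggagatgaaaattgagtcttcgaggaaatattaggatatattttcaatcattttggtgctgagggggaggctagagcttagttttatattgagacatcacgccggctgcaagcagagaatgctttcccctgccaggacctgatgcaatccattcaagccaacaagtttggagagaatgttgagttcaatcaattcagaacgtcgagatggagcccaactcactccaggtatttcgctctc

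The Smarca4 entry held 3 GC boxes and 33 CpG, and the Smarcc1 entry 1 GC box and 33 CpG. The Smarcal1 entry held 1 GC box, a CCAAT box and 13 CpG, and the Arid5b entry no GC box, a TATA box (TATAAA or TTTATA) and 7 CpG. The entry of Smarca2, which fell from control zygotes to 2-cell controls, held 2 GC boxes and 29 CpG and is not printed. Whether these letters go with a course was not tested. Entries were found for 39 of the 52 members, 49 in all. A GC box stood in 79.6% of the 49 member entries against 35.7% of all 32851 entries of this length, searched on both strands. A CCAAT box (CCAAT or ATTGG) stood in 30.6% against 37.4%, a TATA box in 6.12% against 13.6%, and an E box (CACGTG) in 8.16% against 7.15%. The median CpG number was 27 in member entries and 7 in all. A match describes these letters and does not show that a factor binds them.

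RNA of most members was present in most libraries. Between 40 and 48 of the 52 reached 1 FPKM in a library, or 76.9% to 92.3%, against 39.8% to 46.7% of all symbols. Together they made up 0.122% to 0.26% of all FPKM, with the highest share in the first control zygote library. Low members were Smarca1, the second ISWI motor, at or under 0.268 FPKM in all 22 libraries, Chd5 at or under 0.708 and Smarcd3, a subunit of muscle and neural SWI/SNF complexes, at or under 2.04.

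In growing oocytes the top member was Smarcb1, a core SWI/SNF subunit, at 196 and 181 FPKM in controls and 206 and 194 in the libraries labelled knockout. In full-grown control oocytes Smarcb1 was at 151 and 162 FPKM and Brdt at 148 and 161. Brdt is the BET protein best known from sperm formation. It was the highest member in all 8 zygote and 48 h libraries, at 276 and 398 FPKM in control zygotes and 135 and 142 in 2-cell controls. In 8-cell embryos Brdt was between 1.08 and 2.01 FPKM, far under Smarca5, the main ISWI motor, at 51.3 and 46.8 in controls. This last comparison is between genes within the same libraries, and FPKM divides by transcript length.

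**Figure D1:**
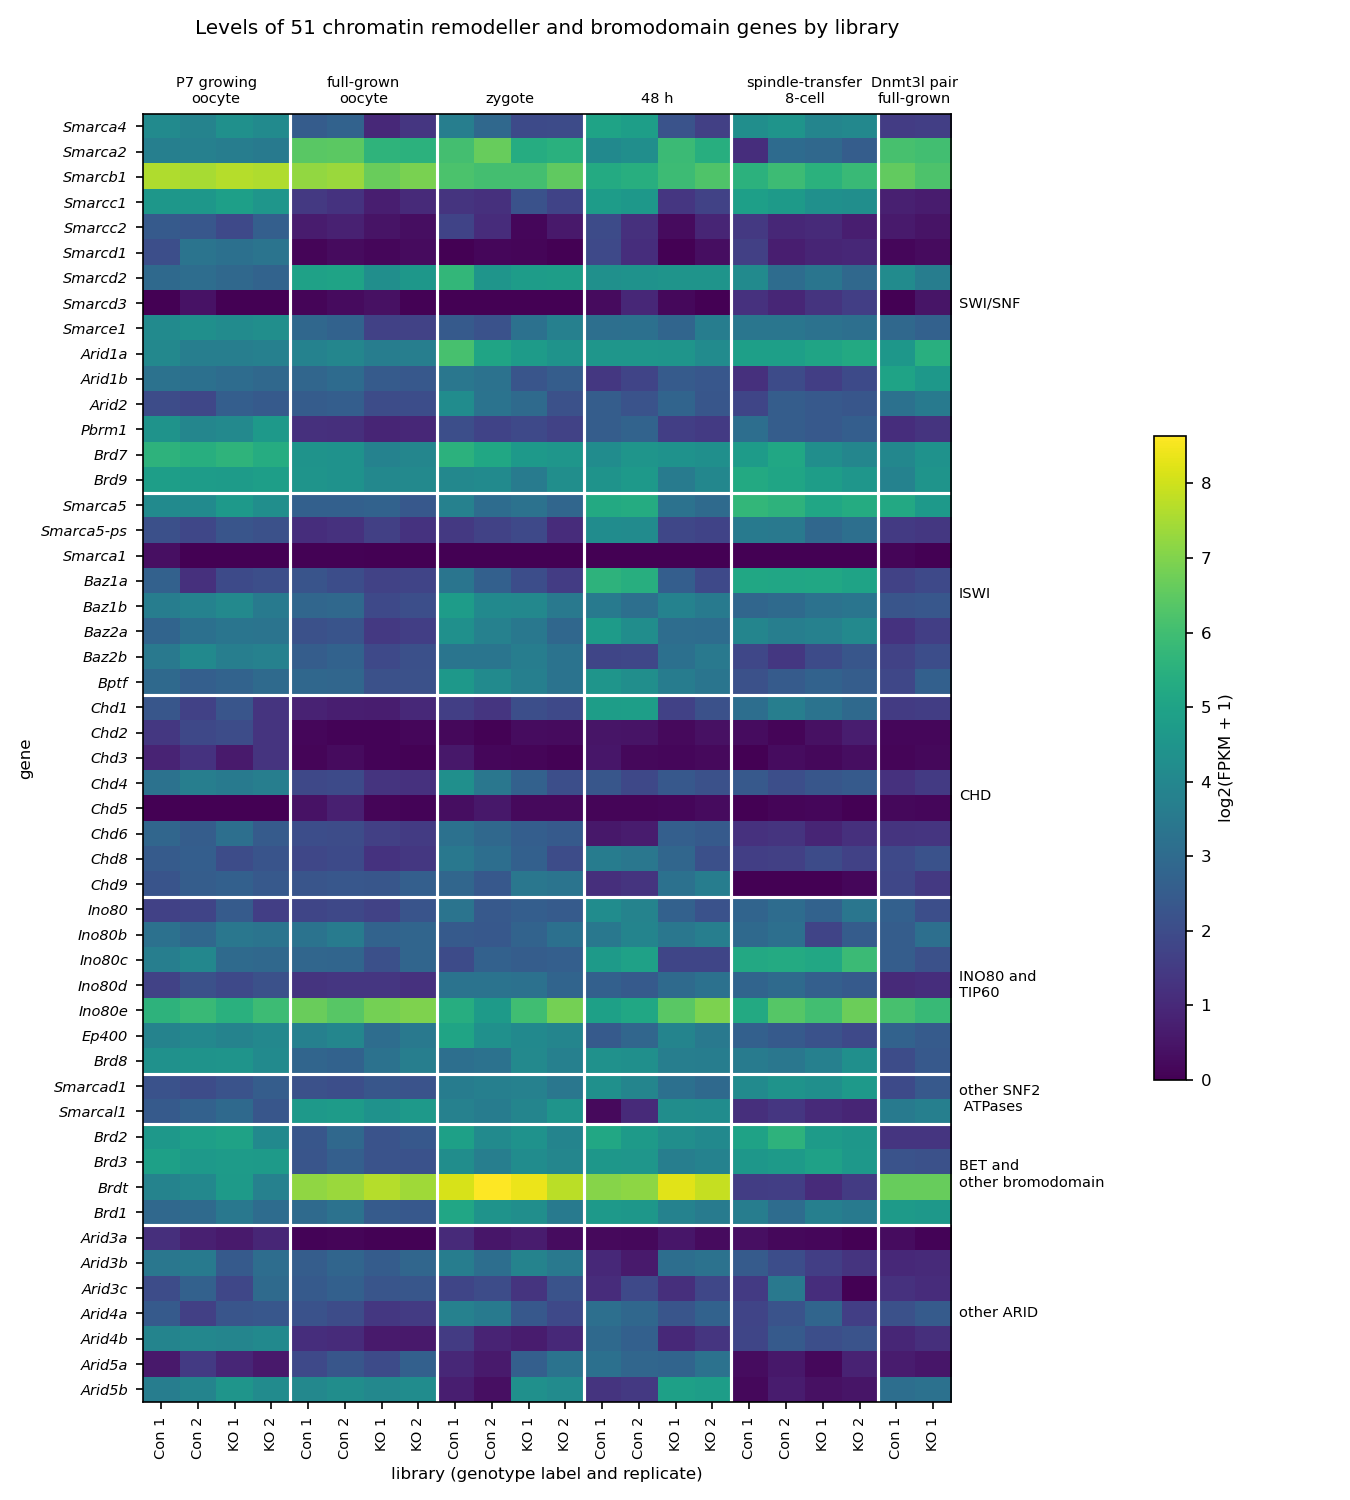
Each row is one of 51 members and each column one of the 22 libraries, with colour giving log2(FPKM + 1). White lines part the 7 families and the stages; the bright Brdt row runs from full-grown oocytes to 48 h embryos, peaking at 398 FPKM in a control zygote library, and is dark in 8-cell embryos.

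From the full-grown oocyte to the zygote in controls, more remodeller genes rose than fell as shares of the RNA. Differences below are on the log2(FPKM + 1) scale, which understates changes of low genes, with their standard errors (SE), and a gene is called where its limma adjusted p is under 0.05 over all 12199 genes tested in the table of 12 libraries. Of the 46 members tested, 23 rose and 6 fell, where 18.5% of all genes rose, 24% fell and 42.5% were called. The member median was 0.72 and that of all genes -0.06. Quantile normalization gave 27 members higher and 6 lower, and over all genes 3179 higher and 2435 lower instead of 2260 and 2930. The 6 members left out for low values in this table were Arid3a, Chd2, Chd3, Chd5, Smarca1 and Smarcd3.

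BET and other bromodomain members rose in that step, among them Brd2, Brd3, Brdt and Brd1. Brd2, a BET protein, was at 3.93 and 6.58 FPKM in control oocytes and 29.3 and 16.5 in control zygotes. The libraries did not overlap, and the difference was 1.91 (SE 0.33, limma adjusted p = 0.0011). Brd1, a scaffold of histone acetyltransferases, rose by 1.66, Brd3 by 1.51 and Brdt by 1.10.

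The ISWI partners rose as well, and their motor was not called. Baz2a, a subunit of the complex that silences ribosomal DNA, was at 3.47 and 3.75 FPKM in oocytes and 19.1 and 12.8 in zygotes, a rise of 1.85 (SE 0.29, limma adjusted p = 0.000701). Baz1b rose by 1.55, and Bptf, the reader subunit of NURF, went from 6.34 and 6.17 FPKM to 23.3 and 16.4 and was called higher. Smarca5 was at 5.31 and 5.3 FPKM in oocytes and 12.9 and 7.24 in zygotes. Of the 7 ISWI members tested, 5 rose and none fell.

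Among CHD members, Chd4, the NuRD motor, was at 2.68 and 2.83 FPKM in oocytes and 18.9 and 9.63 in zygotes (1.96, SE 0.34, limma adjusted p = 0.00121). Chd8, Chd6 and Chd1 were also called higher, and 4 of 5 CHD members tested rose. Chd1 lost its call without any 1 of the 4 control libraries. In SWI/SNF, Arid1a, the large DNA-binding subunit, went from 13.3 and 14.7 FPKM to 68.4 and 31.8 (1.67, SE 0.31, limma adjusted p = 0.00171). Arid2, Brd7 and Pbrm1, all of the PBAF form of the complex, were called higher too. Smarcb1 went the other way, from 151 and 162 FPKM to 71.8 and 65.2 (-1.18, SE 0.21, limma adjusted p = 0.00155).

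The largest change of any member was in Arid5b, which recruits a histone demethylase. It was at 15.5 and 17.7 FPKM in control oocytes and at 0.673 and 0.271 in control zygotes, a difference of -3.59 (SE 0.23, limma adjusted p = 4.98e-06). The other falls were Ino80e (-1.48), Arid5a (-1.33), Ino80b (-1.04) and Smarcal1 (-0.98), with Smarcb1 above. Ino80d, another INO80 subunit, went from 1.49 and 1.55 FPKM to 8.74 and 8.76, a rise of 1.95.

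Transcript length moved with this step. With all genes split by transcript length into 3 equal bins, the long bin had a median difference of 0.28 and the short bin one of -0.51, and 38 of the 46 members tested lie in the long bin. Within it, 30.7% of all genes rose and 11.6% fell, against 22 and 5 of the 38 members. The part of length in the member counts was not tested further. Fewer members were called without the second full-grown control library, and calls over all genes fell too. Not all of the 29 called members kept their call without each of the 4 control libraries in turn.

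From the control zygote to the control 2-cell embryo at 48 h the members split evenly. Differences in this step are given relative to the median of all genes, which was -0.34. The p-values and calls test the differences before that centring. Of 46 members 17 rose and 17 fell, where 33.4% of all genes rose, 42.7% fell and 76.1% were called. With libraries rescaled by median ratios the split was 21 higher and 13 lower, and that of all genes moved the same way, from 4080 higher and 5205 lower to 4648 and 4639. The INO80 and TIP60 family had 4 rises and 2 falls among 7, and SWI/SNF had 5 rises and 6 falls among 14.

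Smarcc1, the scaffold that holds the SWI/SNF core together, was at 1.49 and 1.28 FPKM in control zygotes and 26.7 and 23.3 in 2-cell controls. That was the largest rise among members (3.79 relative to all genes, SE 0.26, limma adjusted p = 3.55e-07). Chd1, a remodeller that follows elongating polymerase, went from 2.04 and 1.51 FPKM to 27.2 and 28 (3.71, SE 0.25, limma adjusted p = 3.7e-07). Neither gene's libraries came near each other between the stages.

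The ISWI motor and its ACF partner rose in the same step. Smarca5 went from 12.9 and 7.24 FPKM to 36.6 and 38.4 (2.18, SE 0.29, limma adjusted p = 0.000137), and Baz1a, the ACF subunit, from 9.31 and 5.33 to 46.7 and 41.5 (2.82, SE 0.32, limma adjusted p = 2.88e-05). The pseudogene Smarca5-ps, whose reads may belong to Smarca5, rose by 2.95. Ino80c rose by 2.83, and the INO80 motor, Ino80, went from 9 and 4.29 FPKM to 17.5 and 13.6 (1.52, SE 0.34, limma adjusted p = 0.00799).

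The SWI/SNF motors moved in opposite directions. Smarca4 was at 12 and 6.65 FPKM in control zygotes and 31.6 and 27.6 in 2-cell controls, a rise of 1.95 (SE 0.31, limma adjusted p = 0.000616). Smarca2, its close paralogue, was at 66.1 and 97.3 FPKM and then at 16.3 and 18.4, a difference of -1.81 (SE 0.23, limma adjusted p = 6.43e-06). Smarca2 thus stood above Smarca4 in both control zygote libraries and below it in both 2-cell controls. The paralogues Arid1a and Arid1b both fell (-0.70 and -1.42), although the Arid1a call was lost without the first control zygote library and with rescaling by median ratios.

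Smarcal1, an annealing helicase that protects stalled replication forks, had the deepest fall. It was at 12.8 and 11.3 FPKM in control zygotes and at 0.17 and 1.02 in 2-cell controls (-2.74 relative to all genes, SE 0.29, limma adjusted p = 2e-06). Arid3b fell by 2.25 and Chd6 by 2.12 on that scale. Over the 3 control stages in this table, 24 of the 52 members had their highest mean at 48 h, 20 in zygotes and 8 in full-grown oocytes.

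**Figure D2:**
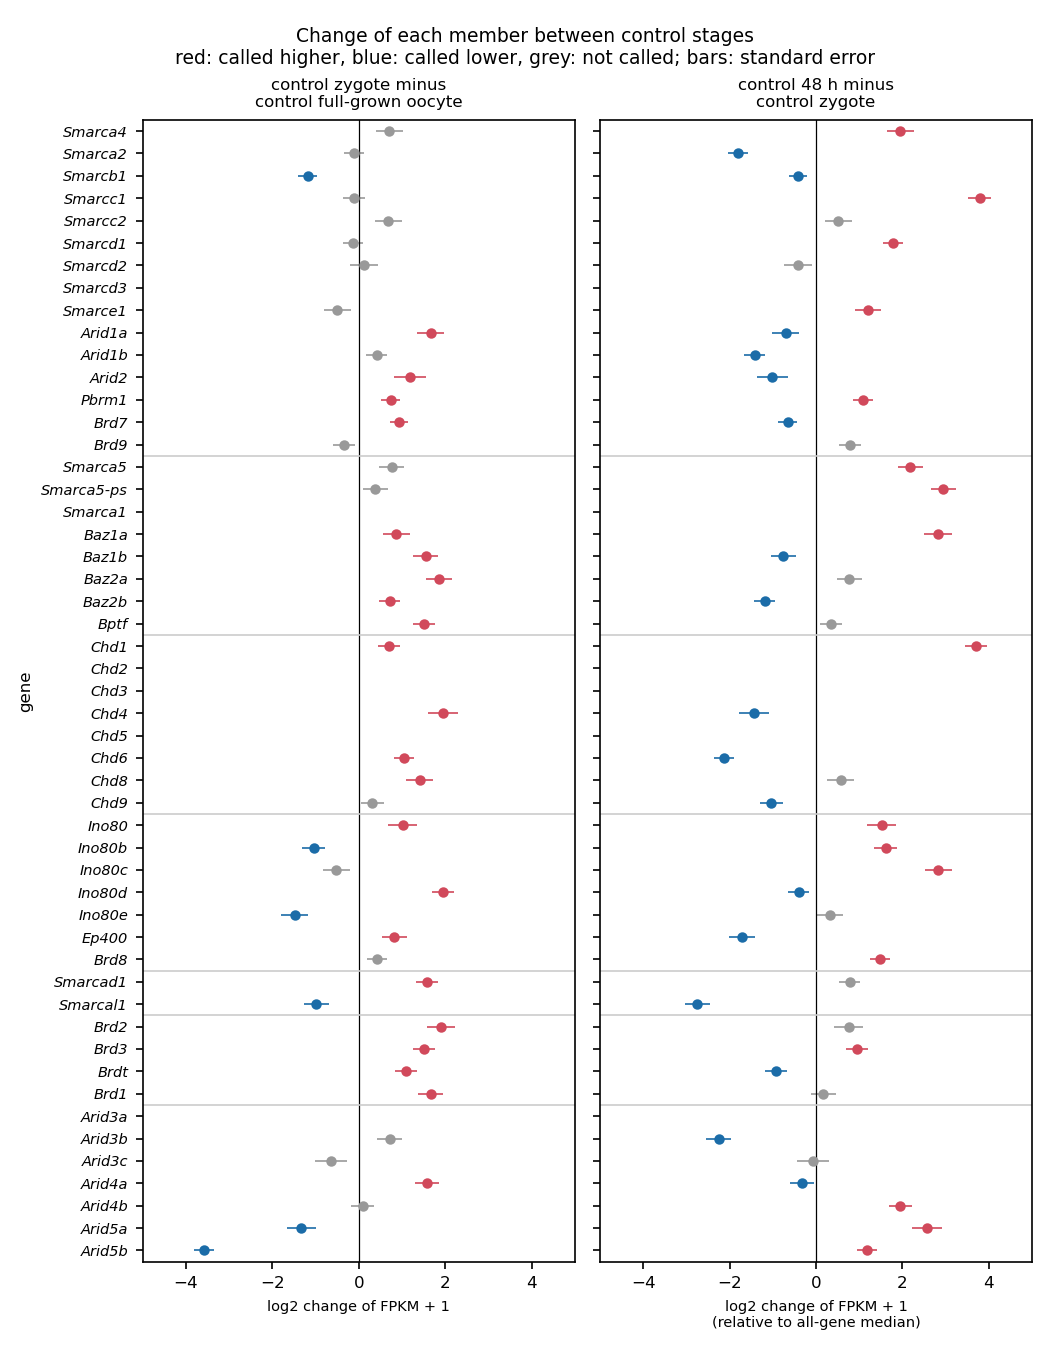
Points give each tested member's difference between consecutive control stages on the log2(FPKM + 1) scale, with the standard error as a bar, red where called higher and blue where called lower; 1 tested member is not drawn. The left panel leans to the right and the right panel is split, with Smarcc1 and Chd1 farthest right and Smarcal1 farthest left there.

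In growing oocytes with and without Setd2 no member was called. Limma called 0 of 47 members and 0.0834% of 10794 genes (0.0741% higher, 0.00926% lower), and 1 member and 868 genes had an unadjusted p under 0.05. That member was Ino80c, an INO80 subunit, at 11.8 and 14.8 FPKM in controls and 7.01 and 6.53 in the libraries labelled knockout (-0.88, SE 0.31, limma adjusted p = 0.522). Its libraries did not overlap. Smarca4 was at 16.4 and 13.7 FPKM against 19.2 and 16.7, Chd4 at 8.55 and 12.1 against 10.6 and 11.8, and neither was called. The groups overlapped for Chd4, whereas the Smarca4 values of the libraries labelled knockout lay just above both controls. The 5 members not tested at this stage were Arid3a, Arid5a, Chd5, Smarca1 and Smarcd3.

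In full-grown oocytes both SWI/SNF motors were lower in the knockout, and these were the 2 calls among 46 members. Over all genes 6.92% were called, 2.02% higher and 4.89% lower. Differences here are relative to the median of all genes, which was -0.19. The p-values and calls test the differences before that centring, which were -1.44 for Smarca4 and -0.86 for Smarca2. Smarca4 was at 4.67 and 5.65 FPKM in controls and at 1.00 and 1.58 in the knockout (-1.25, SE 0.31, limma adjusted p = 0.0253). Smarca2 was at 85.5 and 86.9 FPKM against 47.9 and 46.2 (-0.67, SE 0.23, limma adjusted p = 0.0498). No knockout library reached a control library for either gene. FPKM is a share of a library, so fewer cells holding a transcript and less RNA per cell cannot be told apart.

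Neither call was firm. Without any 1 of the 4 oocyte libraries no member was called, and Smarca2 was also lost under both ways of rescaling the libraries, each of which gave 1 member higher and 1 lower. Over all genes the rescalings gave 391 higher and 323 lower (median ratios) and 401 and 298 (quantile). Calls over all genes also fell as each of the 4 oocyte libraries was left out. With these 4 libraries fitted alone, 13 members were called, all lower, and over all genes 716 were higher and 2071 lower, against 247 and 597 in the joint fit.

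The next members by adjusted p missed the threshold. Smarce1, a DNA-bending SWI/SNF subunit, was at 6.36 and 5.63 FPKM in controls and 2.19 and 2.25 in the knockout (-0.93, SE 0.31, limma adjusted p = 0.0554). Baz1b, an ISWI partner, was at 6.3 and 6.63 FPKM against 2.74 and 3.23 (-0.72, SE 0.29, limma adjusted p = 0.0879). Brd8, a bromodomain subunit of TIP60, was at 6.05 and 5.56 FPKM against 8.48 and 11.9 (0.89, or 0.70 before centring, SE 0.23, limma adjusted p = 0.0915). All 3 had groups that did not overlap. Before any centring 35 of 46 members were lower in the knockout, with a member median of -0.39. The median of all genes was -0.19 on that scale, so most genes leaned lower too. Relative to all genes the member median was -0.20.

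Arid5b was at 15.5 and 17.7 FPKM in control oocytes and 15.5 and 17.4 in the knockout. The groups overlapped almost fully for this gene, which differed so widely in the next stage. Brdt was at 148 and 161 against 203 and 170, and Chd4 at 2.68 and 2.83 against 1.48 and 1.33; neither passed the test.

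Markers of granulosa cells also moved in these oocytes. Inha, an inhibin subunit, was at 14.8 and 15.1 FPKM in controls and 0.816 and 0.519 in the knockout, Cyp11a1 at 3.2 and 2.37 against 0.293 and 0.323, and Fshr at 0.415 and 0.18 against 9.49 and 8.25. The sum over all 11 granulosa markers ran from 32.3 to 35.1 FPKM in controls and from 29.4 to 34.2 in the knockout. Between 2 and 3 of the 11 reached 1 FPKM in each library, Foxl2 and Amh stood at or under 0.07 in all 4, and Ptx3 was listed at 0. The part of such cells in the member values was not tested.

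In zygotes the knockout had 6 members higher and 14 lower among 46, where 18.5% of all genes were higher, 13.1% lower and 31.6% called. Quantile normalization gave 4 members higher and 17 lower, and turned all genes from 2255 higher and 1595 lower to 1968 and 2233. SWI/SNF gave 7 of the 14 lower calls from 14 members tested, and ISWI 3 from 7 tested. The member median was -0.31 and that of all genes 0.01. Arid5b, Arid5a and Arid4a were the members that kept their call without each of the 4 zygote libraries in turn.

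Arid5b had the largest difference. It was at 0.673 and 0.271 FPKM in control zygotes and at 19.1 and 16.9 in the knockout (3.70, SE 0.23, limma adjusted p = 1.45e-05). The knockout zygotes were near the level of the oocytes of either genotype, where it ran from 15.5 to 17.7 FPKM. Arid5a, an RNA-binding relative of Arid5b, was at 0.931 and 0.529 FPKM in controls and 5.13 and 8.87 in the knockout (2.18, SE 0.34, limma adjusted p = 0.00113).

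The difference between the knockout effects in zygotes and full-grown oocytes was tested directly, before any centring. It passed for 3 of 46 members, all higher, where 9.39% of all genes passed, 8.29% higher and 1.1% lower. Relative to the median of all genes it was 3.52 for Arid5b (SE 0.33, limma adjusted p = 0.000277), 2.11 for Smarce1 (SE 0.44, limma adjusted p = 0.01) and 1.77 for Arid5a (SE 0.48, limma adjusted p = 0.0296). The Arid5a value lost its call without any of 5 of the 8 libraries. How many members and how many of all genes passed varied with the library left out.

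The remaining higher calls were subunits of several complexes. Ino80e, an INO80 subunit, was at 41.2 and 25.3 FPKM in controls and 62.2 and 115 in the knockout (1.36, limma adjusted p = 0.0085). Smarce1 was at 4.44 and 3.52 FPKM against 8.32 and 12.7 (1.19, limma adjusted p = 0.0151), the opposite side from its oocyte values. Chd9 (0.76) and Brd8 (0.71) completed the higher calls.

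Among the lower members, Arid4a, a subunit of a histone deacetylase complex, was at 13 and 10.7 FPKM in controls and 4.19 and 2.73 in the knockout (-1.54, SE 0.27, limma adjusted p = 0.0022). Chd4 was at 18.9 and 9.63 FPKM against 5.47 and 3.17 (-1.49, SE 0.34, limma adjusted p = 0.00808). Smarca4 was at 12 and 6.65 FPKM against 2.84 and 2.97 (-1.35, SE 0.31, limma adjusted p = 0.00833). In all 3 genes every knockout library was under every control library, and the Chd4 and Smarca4 controls differed widely from each other.

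Smarca2 was at 66.1 and 97.3 FPKM against 39.9 and 43.9 (-0.92, SE 0.23, limma adjusted p = 0.0124). Both SWI/SNF motors were thus called lower in zygotes as in oocytes, but at neither stage did the calls hold without each library in turn. The other SWI/SNF calls were Arid2 (-1.16), Smarcc2 (-1.04), Arid1b (-0.94), Brd7 (-0.76) and Arid1a. The last was at 68.4 and 31.8 FPKM in controls and 25.5 and 20.6 in the knockout. Among ISWI members, Baz1a (-1.21), Baz2a (-0.88) and Bptf (-0.85) were called lower, and the remaining calls were Chd8 (-0.97) and Brd1 (-0.87).

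Several core members had no call in zygotes. Smarca5 was at 12.9 and 7.24 FPKM in controls and 8.66 and 6.14 in the knockout, Ino80 at 9 and 4.29 against 4.96 and 4.53, and Chd1 at 2.04 and 1.51 against 3.17 and 2.74. The groups overlapped for Smarca5 and Ino80. Ep400, the TIP60 motor, was at 31.9 and 19.5 FPKM against 16.3 and 14.2, and Pbrm1 at 3.25 and 2.31 against 2.75 and 2.28. A call missed here does not show that these levels were the same.

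Many of the lower calls leaned on single libraries. Fewer members were called without the first control zygote library and without the second knockout library, and calls over all genes fell too. The first control library was above the second in 35 of 46 members, with a median difference of 0.37 against 0.02 over all genes. Length moved here too: all genes of the short bin had a median difference of 0.22 and those of the long bin -0.12, where 17% of genes were lower, against 13 of 38 members. Of 12 oocyte markers, 6 were higher in the knockout zygotes and none lower, and their sum was 11772 and 15380 FPKM against 9633 and 9342 in controls. Of 4 granulosa markers tested, Fshr was called higher (2.20), and the sum over all 11 was 24 and 19.9 FPKM against 13.8 and 21.5, with Inha listed at 0 in all 4 zygote libraries. The part of these measures in the member calls was not tested.

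**Figure D3:**
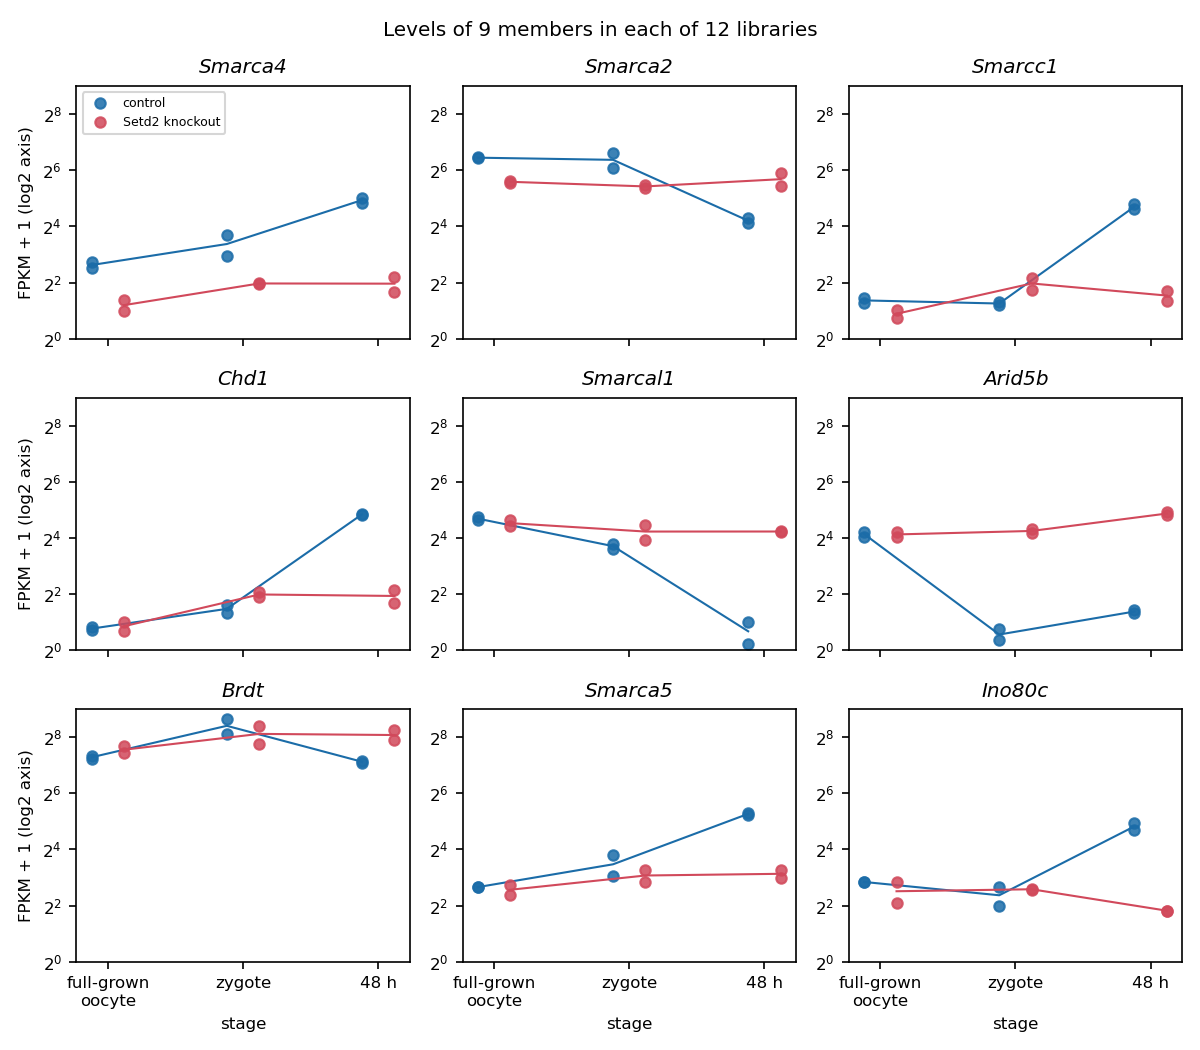
Points are single libraries of 9 members on a log2 axis of FPKM + 1, blue for control and red for Setd2 knockout, with lines through the group means. Arid5b falls from 15.5 and 17.7 FPKM to under 1 in control zygotes and stays above 15 in every knockout library; the red points of Smarca4 lie under the blue ones at all 3 stages.

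At 48 h most members differed between the 1-cell knockout embryos and the 2-cell controls, as did most genes. Of 46 members 12 were higher and 21 lower in the knockout, where 43.2% of all genes were higher, 30.6% lower and 73.8% called. Differences are relative to the median of all genes, which was 0.43, while p-values and calls test the differences before that centring. With libraries rescaled by median ratios the split was 8 higher and 23 lower, and that of all genes moved the same way, from 5270 higher and 3727 lower to 4493 and 4432. Fewer members were called without the first 2-cell control, and calls over all genes fell too. Not all of the 33 called members kept their call without each of the 4 libraries.

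The lower members included SWI/SNF core genes that had risen in 2-cell controls. Smarcc1 was at 26.7 and 23.3 FPKM in controls and 1.55 and 2.24 in the knockout (-3.61, SE 0.26, limma adjusted p = 8.44e-07). Smarca4 was at 31.6 and 27.6 FPKM against 3.63 and 2.14 (-3.43, SE 0.31, limma adjusted p = 5.88e-06). Both genes stood in the knockout near their level in knockout zygotes, where Smarcc1 was at 3.5 and 2.32 and Smarca4 at 2.84 and 2.97.

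Baz1a had the largest difference, at 46.7 and 41.5 FPKM in controls and 5.01 and 2.75 in the knockout (-3.68, SE 0.32, limma adjusted p = 4.02e-06). Its motor Smarca5 was at 36.6 and 38.4 FPKM against 8.66 and 6.85 (-2.57, SE 0.29, limma adjusted p = 4.91e-05). Of 7 ISWI members tested 5 were lower and 1, Baz2b, was higher (1.07). Ino80c was at 24.9 and 29.6 FPKM against 2.51 and 2.54 (-3.43), and Chd1 at 27.2 and 28 against 2.2 and 3.42 (-3.36, SE 0.25, limma adjusted p = 1.41e-06). Ino80 (-2.05), Pbrm1 (-1.56) and Bptf (-1.32) were also called lower, of which Bptf lost the call without the first 2-cell control and without the second knockout library.

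The members higher in the knockout were led by Smarcal1 and Arid5b. Smarcal1 was at 0.17 and 1.02 FPKM in controls and 18 and 17.5 in the knockout (3.18, SE 0.29, limma adjusted p = 7.23e-07). Arid5b was at 1.48 and 1.71 FPKM against 29 and 27.4 (3.06, SE 0.23, limma adjusted p = 1.77e-07). Arid3b (1.96) and Chd9 (1.77) followed, and Chd6 was at 0.454 and 0.595 FPKM against 5.19 and 4.49. Smarca2 was at 16.3 and 18.4 FPKM in controls and 58.7 and 41.9 in the knockout (1.03, SE 0.23, limma adjusted p = 0.000156), so the knockout embryos at 48 h had more Smarca2 than Smarca4, as zygotes of either genotype did.

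Brdt (0.51), Ep400 (0.62), Smarcb1 (0.29) and Arid1b (0.40) were called higher as deposited, but none of these 4 kept the call with libraries rescaled by median ratios. Chd4, at 4 and 2.63 FPKM against 4.24 and 3.4, and Arid1a, at 22.3 and 22.1 against 21.5 and 16.8, were not called. The groups overlapped for Chd4.

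The change in knockout effect from zygotes to 48 h was tested as well, again before any centring. Among 46 members it was positive for 13 and negative for 16 that passed, where 36.7% and 29.5% of all genes did so and 66.2% passed. It was negative for Smarcc1 (-4.23), Chd1 (-3.80) and Ino80c (-3.62) and positive for Smarcal1 (2.75), relative to a median of 0.36 over all genes. With rescaling by median ratios the split was 9 and 18, and that of all genes went from 4480 and 3599 to 3950 and 4164. This difference, the 48 h comparison and the control step share the same 2-cell control libraries, so their values are not independent of each other.

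Markers of the 2-cell stage and of oocytes moved too. The 8-cell markers split at 48 h, with 3 higher and 3 lower in the knockout of 6 tested. All 6 of the 2-cell markers were called higher in the control step to 48 h, and 5 of 6 were lower in the knockout at 48 h; their sum was 149 and 115 FPKM in controls and 7.18 and 37.5 in the knockout. Of 12 oocyte markers 11 were higher in the knockout at 48 h, with a sum of 15558 and 13998 FPKM against 5716 and 5939. The granulosa markers Fshr (2.54) and Cyp19a1 (3.20) were called higher in the knockout too, 2 of the 4 tested, and the sum over all 11 was 19.9 and 22.9 FPKM against 0.332 and 0.28. Inha, Foxl2 and Amh stood at or under 0.15 in all 4 libraries. The part of cell stage in the member values cannot be told apart from that of genotype.

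**Figure D4:**
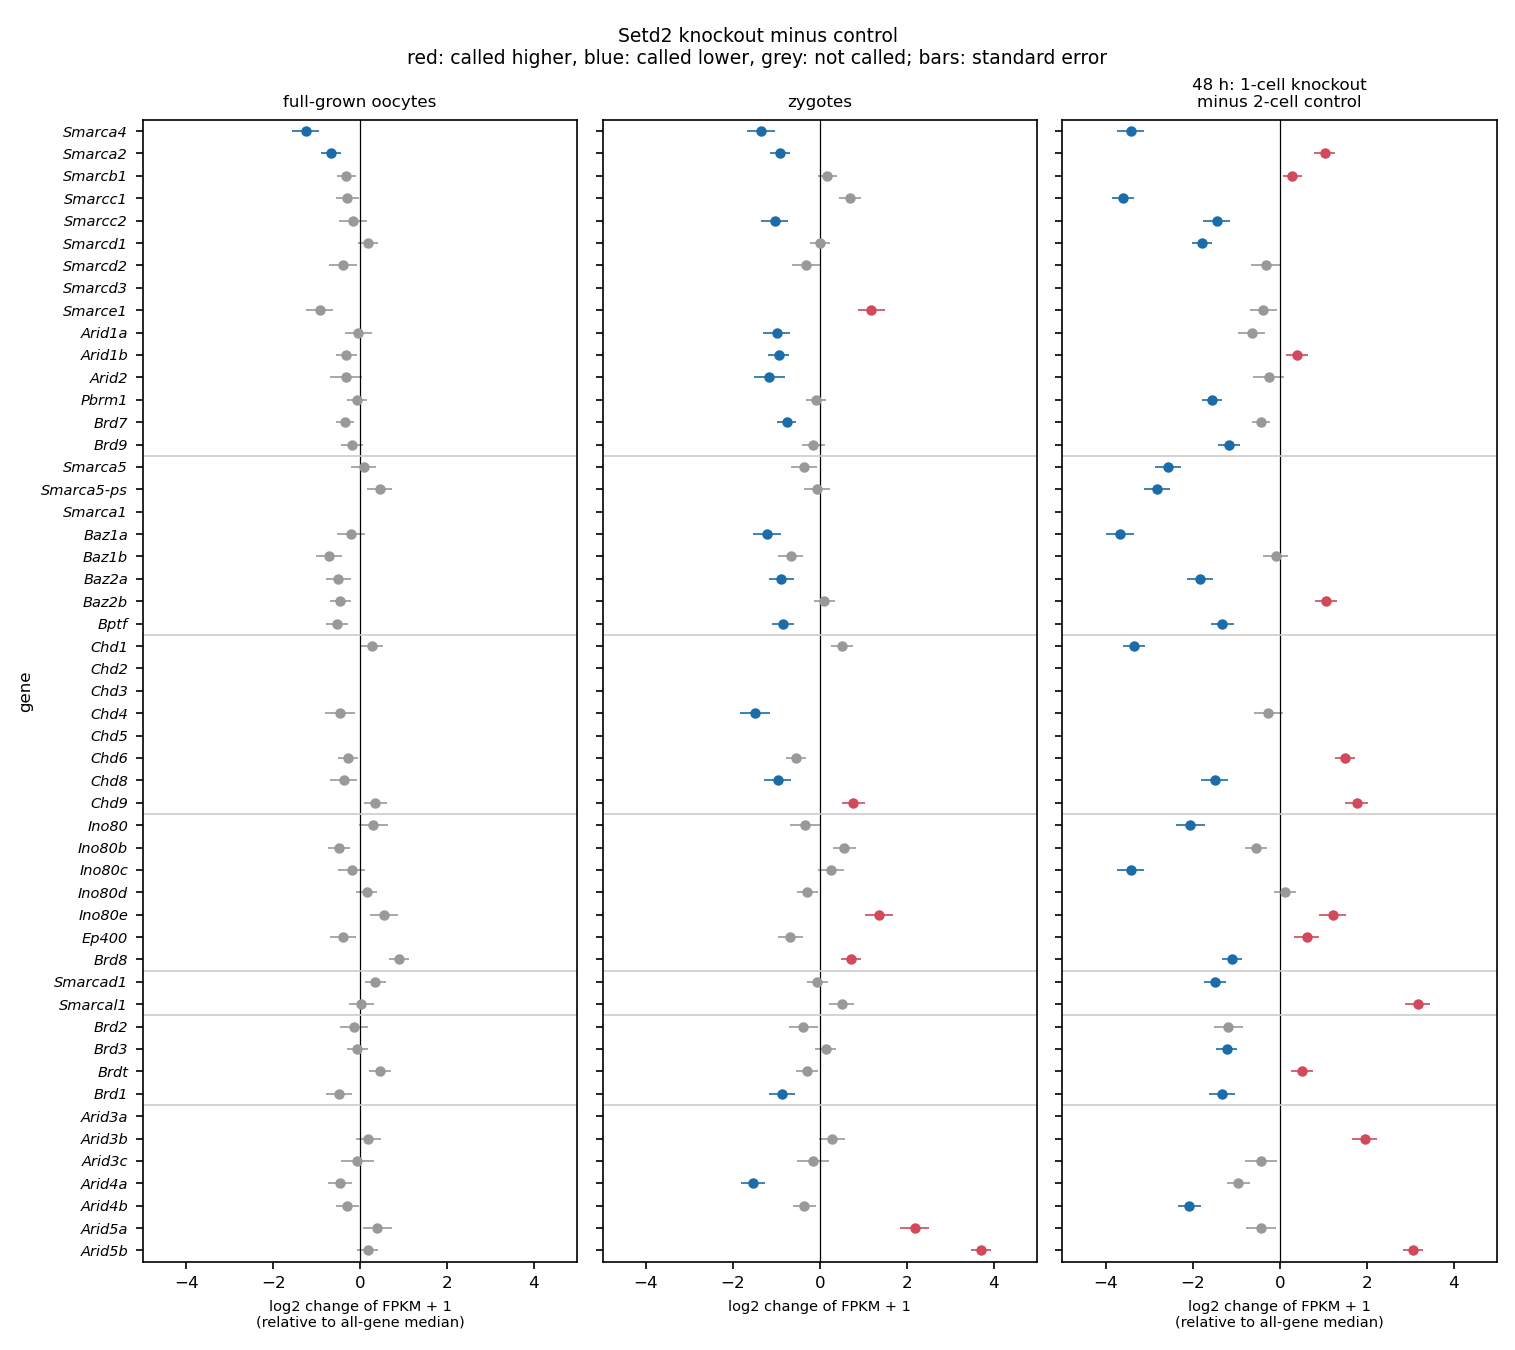
Points give the knockout minus control difference of each tested member on the log2(FPKM + 1) scale with its standard error, red where called higher and blue where called lower. The plot leaves out 1 tested member. Calls grow from 2 in full-grown oocytes to 20 in zygotes and more at 48 h, or 4.35%, 43.5% and 71.7% of members tested. Over all genes 6.92%, 31.6% and 73.8% were called at these stages. Arid5b lies far right in zygotes and at 48 h.

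The 8-cell embryos from spindle transfer gave no call. Limma called 0 of 43 members and 0% of 9398 genes, and 3 members and 1243 genes had an unadjusted p under 0.05. Brd7 was at 25.5 and 34.2 FPKM against 18.4 and 14.5 (-0.82, limma adjusted p = 0.312). Its groups did not overlap.

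Members with the widest differences at 48 h were not called in 8-cell embryos. Smarca4 was at 18.4 and 21.4 FPKM in controls and 14.4 and 15.5 in the libraries labelled knockout, and Smarcc1 at 28.7 and 25.1 against 19.2 and 18.2. For both genes the groups did not overlap and the libraries labelled knockout were lower, as at 48 h. A missing call does not show that the levels were the same. Baz1a was at 34.3 and 34 FPKM against 34.3 and 31.6, and Arid5b, under the filter, at 0.138 and 0.579 against 0.309 and 0.414. Smarca4, Smarcc1 and Baz1a stood in every 8-cell library above both 48 h knockout libraries and Arid5b below both. The tables were normalized separately and the stages differ, so that contrast was not tested. The 9 members not tested here were Arid3a, Arid5a, Arid5b, Chd2, Chd3, Chd5, Chd9, Smarca1 and Smarcd1.

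In the Dnmt3l pair the members above a floor of 5 FPKM stayed within 2-fold on FPKM + 1. Of 19 members that reached 5 FPKM in either library, 0 passed that ratio, where 1.4% of 6015 genes did, 0.732% higher and 0.665% lower. With 1 library per group there is no replicate check and no test. Dnmt3l is the regulatory partner of the DNA methyltransferases of the growing oocyte.

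Arid1a had the highest ratio, at 22.7 FPKM in the control and 42.8 in the library labelled knockout (log2 ratio of FPKM + 1 of 0.89), and Bptf followed at 2.57 and 5.22 (0.80). Ino80 was lowest, at 5.22 and 3.19 (-0.57), and Smarca5 was at 36.2 and 24.6 (-0.54). Smarca4 was at 1.91 and 2.04 FPKM, Smarca2 at 68.4 and 63.9, Brdt at 97.9 and 97.4 and Arid5b at 7.66 and 8.29. The Dnmt3l control column is named as merged, as is its partner, so each may combine runs. Inha was at 22.1 FPKM in the control and 1.63 in the library labelled knockout and Cyp11a1 at 13.3 and 0.68. Cyp19a1 lay on the other side at 16 and 22.1 FPKM, as did Fshr at 0.103 and 0.991. The sum over all 11 granulosa markers was 53.5 and 25.5 FPKM. The part of granulosa cells in the member values was not tested.

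**Figure D5:**
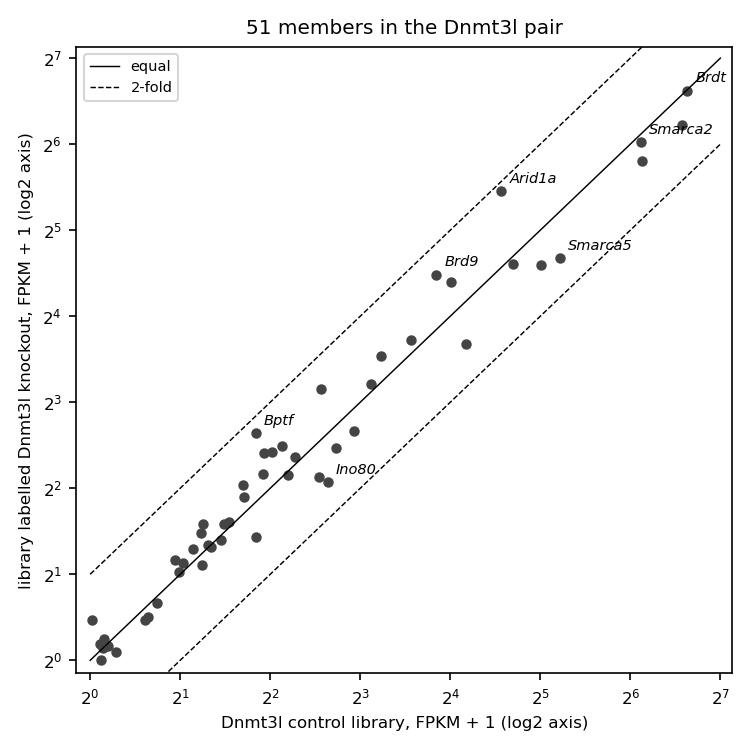
Each point is one of 51 members, with FPKM + 1 in the Dnmt3l control on the x axis and in the library labelled knockout on the y axis, both on log2 scales. Points follow the line of equal values, and those with at least 5 FPKM lie within the dashed 2-fold lines, Arid1a nearest the upper one at 22.7 and 42.8 FPKM.

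The partner subunits of these complexes were read from 5 lists of 88 distinct genes, some of them in more than 1 list. In zygotes 8 of 25 INO80, SRCAP and TIP60 partners were higher in the knockout and 2 lower, beside 18.5% and 13.1% of all genes. H2afz, which encodes H2A.Z, was at 17 and 16.4 FPKM in controls and 65.1 and 58.3 in the knockout (1.81 relative to all genes, limma adjusted p = 0.000138). Actr5, an INO80 subunit, was at 0.603 and 0 FPKM against 3.42 and 5.96. H2afz and Actr5 were also among the 4 partners of that list called higher in full-grown oocytes, with Morf4l1 and Actr6, and none was lower there, beside 2.02% and 4.89% of all genes. H2afz was at 10.5 and 9.35 FPKM in control oocytes and 28.4 and 34.1 in the knockout. At 48 h it lay on the other side, at 335 and 373 FPKM in 2-cell controls and 65.9 and 81.5 in the knockout (-2.68 relative to all genes, limma adjusted p = 1.36e-06).

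The other lists in zygotes had 1 higher and 3 lower of 16 ISWI partners, 0 and 2 of 12 NuRD partners, 1 and 1 of 12 SWI/SNF partners tested and 1 and 5 of 22 other bromodomain genes tested. Dpf2, a SWI/SNF reader subunit, was the higher one of its list, at 6.59 and 6.49 FPKM in controls and 25.7 and 24.7 in the knockout. In full-grown oocytes Atrx, Sp110 and Zmynd11 were lower, and the NuRD and SWI/SNF lists had no call. In growing oocytes and 8-cell embryos no gene of the 5 lists was called.

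At 48 h the NuRD partners held the widest differences. Hdac1, a deacetylase of the complex, was at 52.9 and 51.9 FPKM in 2-cell controls and 0.218 and 0.107 in the knockout. Hdac2, the other deacetylase in the list, was at 13.7 and 7.75 FPKM against 13.9 and 15.4 and was not called. Mta2 was at 21.5 and 20.7 against 0.134 and 0.196, and Cdk2ap1 at 737 and 632 against 4.79 and 6.67. Rbbp7, a histone chaperone shared with other complexes, was on the opposite side at 193 and 205 against 1648 and 1301. Of 12 NuRD partners 2 were higher and 3 lower, of 25 INO80, SRCAP and TIP60 partners 8 and 9, of 16 ISWI partners 5 and 6, of 12 SWI/SNF partners tested 4 and 2, and of 22 other bromodomain genes tested 3 and 13. These counts stand beside the 43.2% higher and 30.6% lower of all genes.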

How the data were processed

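RNA was measured in 22 libraries. The authors deposited FPKM values for 22592 gene symbols in 4 tables, and the tools in the submitters' processing notes are TopHat2 2.0.11 and Cufflinks 2.0.2, with the mm9 build and no role for each. Each FPKM column was used as deposited and matched to a library by its name, and groups came from the titles. Nothing was left out of the comparisons but genes under the filter. The members, gene lists and rule for named genes (members called, with the 8 largest changes where more were called, the highest and lowest of each family, the core motors, and up to 4 partners called per list) were chosen with earlier results of these data known. Further members named in the text were added after their values were seen. The values of 1 member are not reported here, though it stays in the counts.

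Genes with at least 1 FPKM in 2 libraries of a table were tested on log2(FPKM + 1) with limma 3.58.1 in R 4.3.3, a mean per group and a variance trend. Two-sided p-values were corrected after Benjamini and Hochberg across every gene tested and called at 0.05. The 12 libraries of full-grown oocytes, zygotes and 48 h embryos were fitted together. With 2 against 2 libraries the smallest exact permutation p is 0.333, so calls rest on variance shared between genes. Differences are printed relative to the all-gene median where it exceeded 0.1. The p-values, calls and directions of calls are those of the differences before that centring. The scripts were tested on simulated data. Transcript lengths came from GENCODE vM21 and promoters from RefSeq GRCm38.p6, so no mm9 coordinate is given.

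The replicate numbers correlated at 0.0416 (growing oocytes), 0.186 (full-grown), 0.0742 (zygotes), 0.00244 (48 h embryos) and 0.0724 (8-cell), taking deviations from group means across genes. Whether they mark shared animals is not given in the sources used here, so they served as a block only as an alternative. Other alternatives were a pseudocount of 0.1, no filter or one of 5 FPKM, 2 rescalings, no trend and leaving out each library.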

Additional observations from a re-analysis of the deposited data

Results flagged for a closer look

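The effect of the knockout differed between stages for several members, by a limma test of the difference itself before any centring. The values below are given relative to the median of all genes. Between full-grown oocytes and zygotes it was higher in zygotes by 3.52 for Arid5b, 2.11 for Smarce1 and 1.77 for Arid5a, on the log2(FPKM + 1) scale. Smarce1 changed sides: it was at 6.36 and 5.63 FPKM in control oocytes and 2.19 and 2.25 in the knockout, and at 4.44 and 3.52 in control zygotes and 8.32 and 12.7 in the knockout.

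Between zygotes and 48 h embryos the knockout effect changed by -4.23 for Smarcc1, -3.80 for Chd1, -3.62 for Ino80c, 2.75 for Smarcal1, -2.69 for Smarca5-ps, -2.54 for Arid5a, -2.40 for Baz1a and -2.14 for Smarca5. Arid5a was at 8.14 and 6.15 FPKM in 2-cell controls and 5.87 and 8.48 in the knockout, so its groups overlapped there. At 48 h the knockout embryos were at the 1-cell stage, and stage and genotype cannot be told apart in these values.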

How the results depend on the processing

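Counts of called members are from limma at an adjusted p under 0.05. In full-grown oocytes the 2 calls became 1 with a pseudocount of 0.1, 0 without a filter and 1 with a replicate block. Over all genes the 844 calls became 489, 500 and 618 in these settings. With the 4 libraries fitted alone members had 13 calls and all genes 2787. Both member calls were lost as each library was left out. In zygotes the 20 calls became 13 without a filter, 10 with the 4 libraries alone, 20 with the replicate block and 7 to 18 as each library was left out. The step from control oocytes to zygotes had 18 to 28 calls instead of 29 without each library in turn. The difference of effects between oocytes and zygotes had 5 calls without a variance trend instead of 3, and over all genes 1121 instead of 1145. Over all genes the 3850 zygote calls became 3298 without a filter, 2607 with the 4 libraries alone and 3746 with the replicate block. In the table of 12 libraries, calls over all genes also fell in most fits that left out a library. They fell in every such fit of the step from control oocytes to zygotes, and rose in zygotes without the first knockout library. The replicate block took no other count past 1.5 times its value as reported. Growing oocytes, 8-cell embryos and the Dnmt3l pair had 0 calls under all settings run. No called member reversed its direction in any setting of the comparison where it was called. Of these values 1589 kept their side of the threshold and 229 lost it. Members without a call in a comparison were not followed in this way. Low depth in zygotes, about 3.16 to 3.49 M fragments, limits members near 1 FPKM.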
